A study of Mus musculus with 6 samples.

Results

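The 10 genes described here encode the light-response cascade of cone photoreceptors: the opsins Opn1sw and Opn1mw, the arrestin Arr3, the transducin subunits Gnat2, Gnb3 and Gngt2, the phosphodiesterase subunits Pde6c and Pde6h, and the channel subunits Cnga3 and Cngb3. They were chosen by name, and all 10 were found among the 54532 genes of the deposited count table. The tissue was mouse retinal pigment epithelium (RPE), taken 5 h after light onset from 3 wild-type (WT) mice of the strain 129S1/SvlmJ and 3 Abca4-/- mice (Abca4KO, Jackson line Abca4tm1Ght/J). Both lines carried the Leu450 form of Rpe65 and lived in 12-h cyclic light on standard diet. Line and genotype changed together, and sex and age were not stated in the labels.

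In a cone, light changes the shape of an opsin, the opsin activates transducin, and transducin lifts the inhibition of phosphodiesterase. The enzyme then lowers cyclic GMP, the cyclic nucleotide-gated channel closes and the cell hyperpolarises. Arrestin binds the light-activated opsin and ends its signal. Rods run the same cascade with their own set of gene products. The RPE faces the outer segments of both cell types and takes up the tips they shed, but it is not the cell in which this cascade works, and the neural retina lies directly on it.

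Cone transcripts were rare in all 6 libraries and did not differ by genotype beyond the spread between mice. Summed over the 10 genes, they made up 53.8, 44.9 and 63.4 CPM (read counts scaled to a common library size with edgeR's TMM factors) in WT 1, 2 and 3, and 96.9, 49.3 and 57.5 CPM in Abca4KO 1, 2 and 3. The genotypes overlapped, and Abca4KO 1 stood above the other 5 libraries. In WT 2 the largest parts of the sum were Gngt2 (17.1 CPM) and Gnat2 (14.5 CPM). That library was highest for Gngt2 but lowest for most of the other genes, so the sum understates its low in those. Of the 10 genes, 9 passed the filter on low counts, and 0 of these 9 passed edgeR's quasi-likelihood test at the 0.05 threshold on adjusted p, where 0.0461% of the 17340 genes tested did. At an unadjusted p under 0.05 the count was also 0 of 9, against 7.02% of all genes tested. After adjustment limma-voom called 0 of 9 and DESeq2 0 of the 8 to which it gave an adjusted p (none for Cngb3). Of these tools, limma-voom alone gave 1 unadjusted p below 0.05, for Gnb3 (0.044, adjusted p = 0.285). In 0 of the 9 were all libraries of one genotype above those of the other, against 12.8% of all genes tested. Log2 fold changes, Abca4KO minus WT, were positive for 8 of the 9, with a median of 0.46. Over all genes tested 8293 were positive and 9047 negative, with a median of -0.01.

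Total counts per library lay between 17047286 and 19841307, so 3 counts, the floor used for a gene that is not seen, corresponded to 0.152 to 0.174 CPM. Reads carry no molecular identifiers, so intervals and floors cover counting error only. RNA was taken from whole tissue, and fewer cells of a type cannot be told apart from less RNA per cell. Abca4 measured 932 to 968 CPM in WT and 32.6 to 39.1 CPM in Abca4KO, as the labels give. The tissue label matched its markers by level: all 10 RPE identity genes examined were detected, with a summed level of 32341 to 41478 CPM. Ttr (11723 to 14558 CPM) and Rgr (8699 to 11318 CPM) were the largest parts, and Best1 the smallest (3.92 to 9.80 CPM). Detection alone does not set the RPE apart, because the 10 rod counterparts were detected too, at 1148 to 3915 CPM in sum. The design text gives 3 mice per genotype as replicates.

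**Figure D1:**
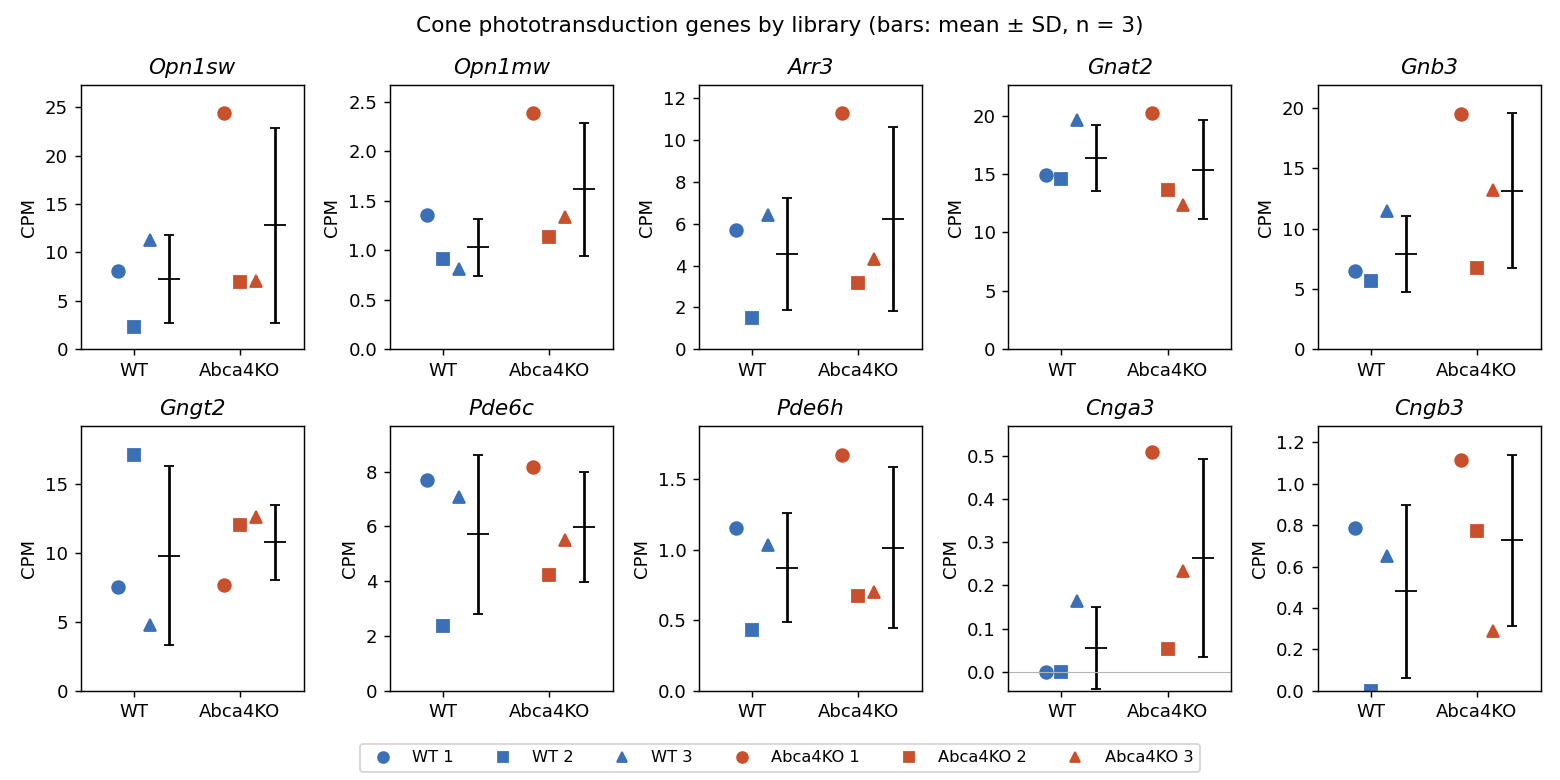
Level of each cone phototransduction gene in CPM (vertical axis, 1 scale per gene) in each of the 3 WT and 3 Abca4KO libraries, with the mean and SD of each genotype (n = 3) beside the points. The circle of Abca4KO 1 is the highest point in 9 of the 10 genes, against 13.9% of all genes tested. Gngt2, highest in WT 2 at 17.1 CPM, is the exception.

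For 6 of the 10 genes RefSeq promoter windows were at hand (build GRCm38.p6, the build that mm10 names): Opn1sw, Opn1mw, Arr3, Gnat2, Pde6h and Cnga3, the last with 2 starts. Gnb3, Gngt2, Pde6c and Cngb3 had no entry. The 250 bases before the start of Opn1sw and of Arr3 are shown because these 2 genes varied most between libraries among those detected in every one. Capitals mark TAATCT, a spelling of the core bound by photoreceptor homeodomain factors such as CRX, and AGGTCA, in either orientation, the half-site of nuclear receptors, the class to which the cone regulators Thrb and Rxrg belong.
Opn1sw, chr6:29380514-29380763, minus strand: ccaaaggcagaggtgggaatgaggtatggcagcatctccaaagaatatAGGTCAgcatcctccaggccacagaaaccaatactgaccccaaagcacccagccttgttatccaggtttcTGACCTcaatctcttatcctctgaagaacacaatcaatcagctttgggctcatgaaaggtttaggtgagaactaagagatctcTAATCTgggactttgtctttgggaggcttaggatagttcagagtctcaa
Arr3, chrX:100605247-100605496, plus strand: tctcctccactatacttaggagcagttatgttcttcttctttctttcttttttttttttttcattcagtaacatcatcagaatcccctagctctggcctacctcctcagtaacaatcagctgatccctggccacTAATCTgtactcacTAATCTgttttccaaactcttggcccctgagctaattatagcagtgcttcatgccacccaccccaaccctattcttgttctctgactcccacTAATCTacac

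On both strands of the 250 bases, 3 spellings were searched. They were TAATCC as the usual form of the homeodomain core, its variant TAATCT, which was added after these sequences were seen, and the half-site AGGTCA. No 2 matches overlapped in the members' windows. Arr3 held 3 matches to TAATCT, which began 116, 102 and 10 bases before the start, and none to the other spellings. Opn1sw held 1 match to TAATCT, which began 49 bases before the start, and 2 to AGGTCA, 202 and 132 bases before it. Gnat2 held 1 match to TAATCC, 19 bases before its start. All 250 bases of the Gnat2 window lie in annotated exon, against 0 in those of Opn1sw and Arr3. The Opn1sw window still lies inside its counted gene model, which begins at base 29388468 on the minus strand, so it is not upstream of that whole model. The windows of Opn1mw, Pde6h and Cnga3 held no match to any of the 3 spellings. Of 32851 promoter windows of the same length, 6.25% held the usual form of the core, 7.31% held its variant and 14.0% held the half-site. A match is a run of letters and not a measured binding site.

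The opsins begin the cascade. Opn1sw (ENSMUSG00000058831, chromosome 6, 29376671 to 29388468, minus strand, mm10) encodes the short-wavelength opsin. It measured 8.12, 2.36 and 11.3 CPM in WT 1, 2 and 3 and 24.4, 6.97 and 7.03 CPM in Abca4KO 1, 2 and 3. WT 2 was lowest and Abca4KO 1 highest, 10.3 times apart, and the other 4 libraries lay together between them. The counting intervals of these 2 libraries (95% exact Poisson) were 32.0 to 59.1 counts around 44 and 438.0 to 524.9 counts around 480. Mean levels were 7.27 ± 4.54 CPM for WT against 12.8 ± 10.02 CPM for Abca4KO (SD, n = 3). Its log2 fold change of 0.82 (SE 0.67, 95% interval -0.74 to 2.37, adjusted p = 0.852) did not exceed the spread between mice. Without Abca4KO 1 it was -0.054, so the direction rested on that library.

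Opn1mw (ENSMUSG00000031394, chromosome X, 74127464 to 74150760, plus strand) encodes the middle-wavelength opsin. It measured 1.36, 0.913 and 0.817 CPM in WT and 2.38, 1.14 and 1.34 CPM in Abca4KO. Abca4KO 1 was again highest, and WT 3 rather than WT 2 lowest. The log2 fold change was 0.65 (SE 0.45, 95% interval -0.40 to 1.70, adjusted p = 0.817). It kept its sign in all 6 fits that left out 1 library, from 0.26 to 0.90.

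Many mouse cones make both opsins, in amounts that follow opposite gradients across the retina. The share of Opn1mw in the counts of both opsins, not corrected for length, was 14.4% in WT 1 (95% Clopper-Pearson interval 9.60% to 20.3%), 27.9% in WT 2 (17.2% to 40.8%) and 6.73% in WT 3 (3.81% to 10.9%). In Abca4KO 1, 2 and 3 it was 8.92% (6.63% to 11.7%), 14.0% (8.995% to 20.4%) and 15.97% (10.4% to 23.0%). The intervals of WT 2 and WT 3 did not overlap, so the spread inside WT exceeded counting error, and the Abca4KO values fell inside the WT range.

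Arr3 (ENSMUSG00000060890, chromosome X, 100605497 to 100618493, plus strand), the cone arrestin that ends opsin signalling, measured 5.71, 1.503 and 6.42 CPM in WT and 11.3, 3.15 and 4.30 CPM in Abca4KO. Its libraries stood in the same order as those of Opn1sw, with WT 2 lowest and Abca4KO 1 highest, 7.49 times apart. Its log2 fold change was 0.46 (SE 0.64, 95% interval -1.03 to 1.95, adjusted p = 0.920), and -0.29 without Abca4KO 1.

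The 3 transducin subunits did not vary together. Gnat2 (ENSMUSG00000009108, chromosome 3, 108092789 to 108101432, plus strand), the alpha subunit that carries the signal to phosphodiesterase, measured 14.9, 14.5 and 19.7 CPM in WT and 20.2, 13.6 and 12.3 CPM in Abca4KO. It was the steadiest of the genes detected in every library, with 1.64 times between the extremes, where the median over all genes tested was 1.54 and over the 9 members tested 3.62. On the log2 scale the difference was -0.09 (SE 0.22, 95% interval -0.61 to 0.43, adjusted p = 0.962), and it was positive in 2 of the 6 fits that left out 1 library, up to 0.069 without WT 3.

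Gnb3 (ENSMUSG00000023439, chromosome 6, 124834240 to 124840275, minus strand) encodes the beta subunit, which ON bipolar cells of the retina also use. It measured 6.49, 5.69 and 11.5 CPM in WT and 19.5, 6.71 and 13.2 CPM in Abca4KO. Abca4KO 1 and 3 lay above all WT libraries and Abca4KO 2 among them. Abca4KO minus WT on the log2 scale was 0.74 (SE 0.42, 95% interval -0.25 to 1.73, adjusted p = 0.774), the smallest p of the 9, and stayed positive in all 6 fits that left out 1 library (0.33 to 1.11). The sum of 12 bipolar cell markers overlapped as well, at 52.9 to 95.2 CPM in WT and 54.5 to 78.0 CPM in Abca4KO. Prkca was its largest single part, with 37.0 to 57.8 CPM in WT and 33.1 to 36.9 CPM in Abca4KO. The sum did not simply follow that gene. WT 1 and Abca4KO 1 had 37.0 and 36.9 CPM of Prkca but sums of 55.9 and 78.0 CPM. Among the 11 of these markers that were tested, 7 stood higher and 4 lower in Abca4KO (median on the log2 scale 0.56), and 0 passed the threshold. The part of bipolar cells in the Gnb3 values was not tested.

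Gngt2 (ENSMUSG00000038811, chromosome 11, 95837216 to 95845734, plus strand) encodes the gamma subunit, and its transcript is also known from leukocytes such as monocytes. It measured 7.54, 17.1 and 4.74 CPM in WT and 7.66, 12.0 and 12.6 CPM in Abca4KO. WT 2, the lowest library for most of the other members, was the highest for Gngt2. The log2 fold change was 0.13 (SE 0.46, 95% interval -0.93 to 1.20, adjusted p = 0.974). Without WT 2, the highest library, it was 0.81 (SE 0.30, adjusted p = 0.394). Both remaining WT libraries then lay below all Abca4KO libraries, where 28% of all genes tested did not overlap in either direction. The gap was narrow, with 144 counts in WT 1 and 151 in Abca4KO 1, whose counting intervals overlapped.

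All 15 macrophage and microglia markers examined were detected, at 942 to 1873 CPM in sum in WT and 1139 to 1660 CPM in Abca4KO, with WT 2 highest of all 6. The centred profile of Gngt2, its log2 CPM in each library minus its mean over the 6, lay 0.17 from the mean profile of these markers as a root mean square distance in log2 units, and 1.29 from that of the rod counterparts. The other 9 members lay at least 0.72 from the macrophage profile. Gnat2 lay 0.27 from the mean profile of the RPE identity genes and 0.62 from that of the rod counterparts. For Opn1mw these distances were 0.47 and 0.54. The RPE profile is nearly flat (-0.18 in WT 2 to 0.07 in Abca4KO 2), so any steady gene lies near it. The distances were computed after the values were seen and describe 6 libraries. Lymphocyte and monocyte or neutrophil markers were not compared with Gngt2 in this way. WT 2 was the highest library for 8 of 10 and 5 of 10 of them, for 9 of the 15 macrophage markers and for 24.9% of all genes tested. The part of leukocytes in the Gngt2 values, and of RPE cells in those of Gnat2 and Opn1mw, was not tested.

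**Figure D2:**
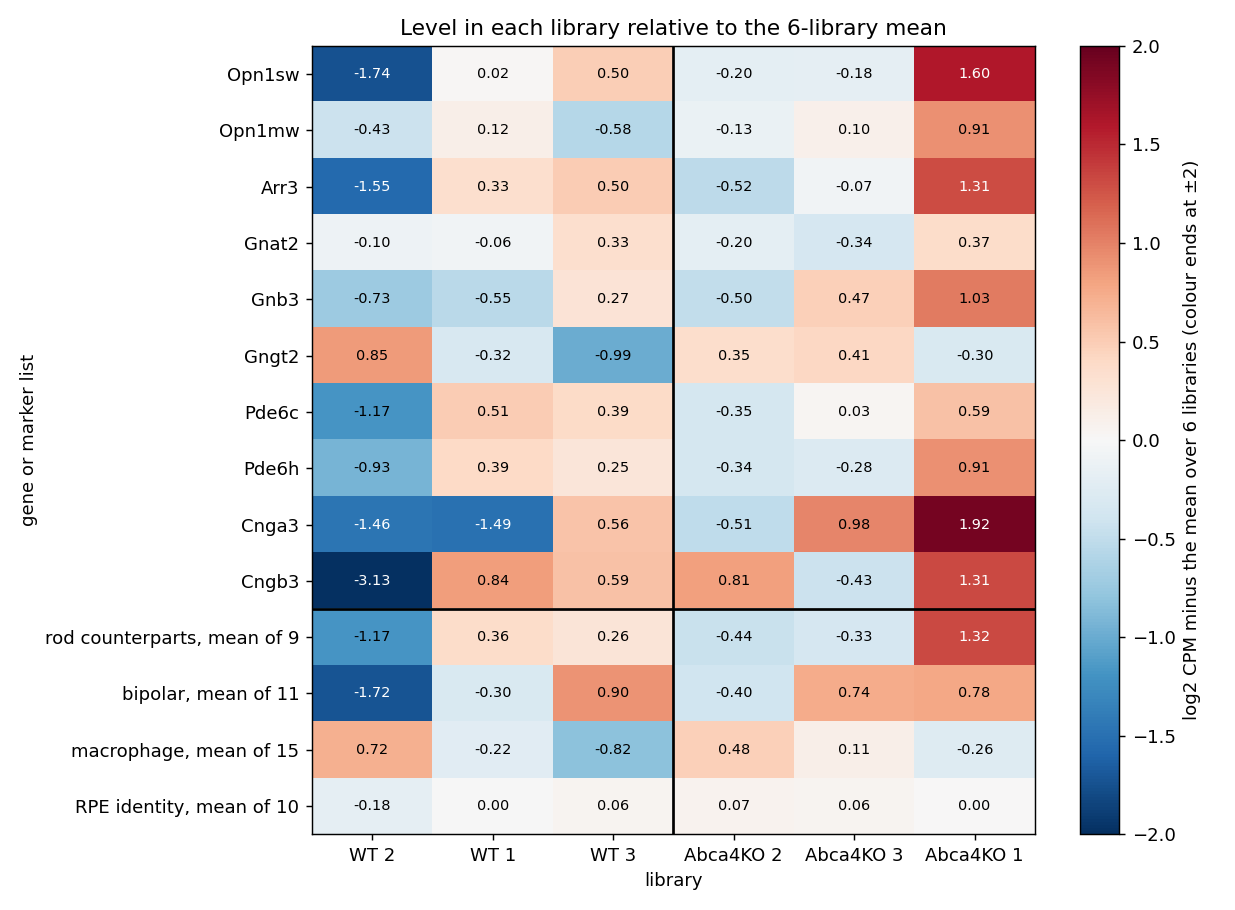
Log2 CPM in each library minus the mean over the 6 libraries for the 10 cone genes (above the line) and for the means of 4 marker lists (below it). Columns are libraries, with WT 2, 1 and 3 left and Abca4KO 2, 3 and 1 right of the line. Opn1sw, Arr3, Pde6c and Pde6h run blue in WT 2 and red in Abca4KO 1 like the rod counterparts (-1.17 and 1.32), whereas Gngt2 (0.85 in WT 2) runs with the macrophage markers (0.72).

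The phosphodiesterase lowers cyclic GMP. Pde6c (ENSMUSG00000024992, chromosome 19, 38132781 to 38183958, plus strand), its catalytic subunit in cones, measured 7.70, 2.36 and 7.08 CPM in WT and 8.17, 4.23 and 5.52 CPM in Abca4KO. WT 2 was lowest and Abca4KO 1 highest, but Abca4KO 1 exceeded WT 1 by little. Its log2 fold change was 0.06 (SE 0.46, 95% interval -1.01 to 1.14, adjusted p = 0.986).

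Pde6h (ENSMUSG00000064330, chromosome 6, 136923832 to 136968865, plus strand), the inhibitory subunit that transducin displaces, held only 8 to 33 counts per library. It measured 1.15, 0.429 and 1.03 CPM in WT and 1.67, 0.671 and 0.697 CPM in Abca4KO, in the same order of extremes. On the log2 scale the difference was 0.22 (SE 0.58, 95% interval -1.14 to 1.58, adjusted p = 0.964).

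The channel subunits were close to the limit of detection. Cngb3 (ENSMUSG00000056494, chromosome 4, 19280850 to 19510623, plus strand), the modulatory subunit, had 15, 0 and 12 counts in WT and 22, 15 and 5 counts in Abca4KO, or 0.785, 0 and 0.653 CPM and 1.116, 0.774 and 0.291 CPM. The 0 in WT 2 allows up to 0.161 CPM. Abca4KO minus WT on the log2 scale was 0.60 (SE 1.00, 95% interval -1.75 to 2.95, adjusted p = 0.933), and it ranged from 0.024 without WT 2 to 1.15 without WT 1. Cnga3 (ENSMUSG00000026114, chromosome 1, 37214434 to 37263384, plus strand), the pore-forming subunit, had 0, 0 and 3 counts in WT and 10, 1 and 4 counts in Abca4KO and did not pass the filter. Summed per genotype, 15 counts stood against 3, a ratio of 4.98 with a 95% exact interval of 1.41 to 26.9 that covers counting error only and leaves out the spread between mice. With all genes above a count of 0 kept, its adjusted p in edgeR was 0.811.

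Gene models limit some of these counts, because the strand setting of the counting was not found in the labels. Exons of Opn1sw share 397 bases with Calu on the opposite strand, those of Gngt2 share 234 bases with Abi3 and those of Pde6h share 136 bases with Arhgdib, in GENCODE M21. Calu was even across libraries (4525 to 5109 counts). Abi3, a gene of leukocytes, had 149 counts in WT 2 and 25 to 46 in the other libraries, and in Abca4KO 2 it had 25 where Gngt2 had 233. Arhgdib had 598 to 1546 counts, with WT 2 highest, where Pde6h was lowest. Over stretches of at least 100 bases, other genes were at most 83.8% identical to Gnat2, Gnb3, Arr3, Pde6c, Opn1mw and Cngb3, except for Gm49651, 98.7% identical to 231 bases of Gnat2 and with 0 counts. Besides Calu, the nearest to Opn1sw was at 86.2%. Pde6h and Cnga3 hold stretches that were up to 94.3% and 91.8% identical to other genes, so their few counts are uncertain.

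Per kilobase of gene model, the levels over all 6 libraries were in the order Gngt2 (5.48 CPM per kb, range 2.52 to 9.12), Gnat2 (5.30, range 4.11 to 6.74), Gnb3 (3.996, range 2.16 to 7.42), Opn1sw (3.92, range 0.924 to 9.53), Arr3 (2.29, range 0.638 to 4.78), Pde6c (1.97, range 0.795 to 2.75), Opn1mw (0.848, range 0.523 to 1.53), Cngb3 (0.128, range 0 to 0.237), Pde6h (0.120, range 0.0547 to 0.213) and Cnga3 (0.0402, range 0 to 0.128). The ranges of the first 7 overlapped with those of their neighbours, and so did those of the last 3. Cngb3, Pde6h and Cnga3 lay below Opn1mw without overlap of range. The Pde6h model spans 7846 bases of exon whereas one of its annotated protein-coding transcripts has 392, so its level per kilobase depends strongly on the model.

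Rod genes moved in the same libraries. All 10 rod counterparts had WT 2 as the lowest and Abca4KO 1 as the highest library, as did 6 of the 9 tested cone genes and 4.78% of all genes tested. The exceptions among the cone genes were Opn1mw, Gnat2 and Gngt2. Sag, the rod arrestin, measured 137, 54.1 and 141 CPM in WT and 355, 81.9 and 100.2 CPM in Abca4KO. Of the 10 rod counterparts, 0 passed the threshold, 10 were positive, and the median log2 fold change was 0.43.

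Some cone genes varied less when set against their rod counterpart inside each library. Arr3 per kilobase was 15.7%, 10.5% and 17.3% of Sag in WT and 12.0%, 14.5% and 16.2% in Abca4KO, while the level of Arr3 itself spread 7.49 times. Pde6c was 22.5%, 20.7% and 21.4% of Pde6b in WT, but 11.4%, 27.5% and 31.6% in Abca4KO, where Abca4KO 1 stood below all the other libraries and the other pair above them. Gnat2 went from 3.00% of Gnat1 in Abca4KO 1 to 11.95% in WT 2. Gngt2 ranged from 49.1% of Gngt1 in Abca4KO 1 to 797% in WT 2.

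In 8 of the 9 pairs compared the genotypes overlapped. The 1 pair without overlap stands beside a share of 12.8% among single genes tested, which are levels and not ratios. It was Pde6h against Pde6g, with a log2 difference (not per length) of -5.33, -5.08 and -5.16 in WT and -5.45, -5.45 and -5.50 in Abca4KO, which rests on the 8 to 33 counts of Pde6h. An exact permutation test of 3 against 3 libraries cannot go below 0.1, and no other test of these ratios was run.

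**Figure D3:**
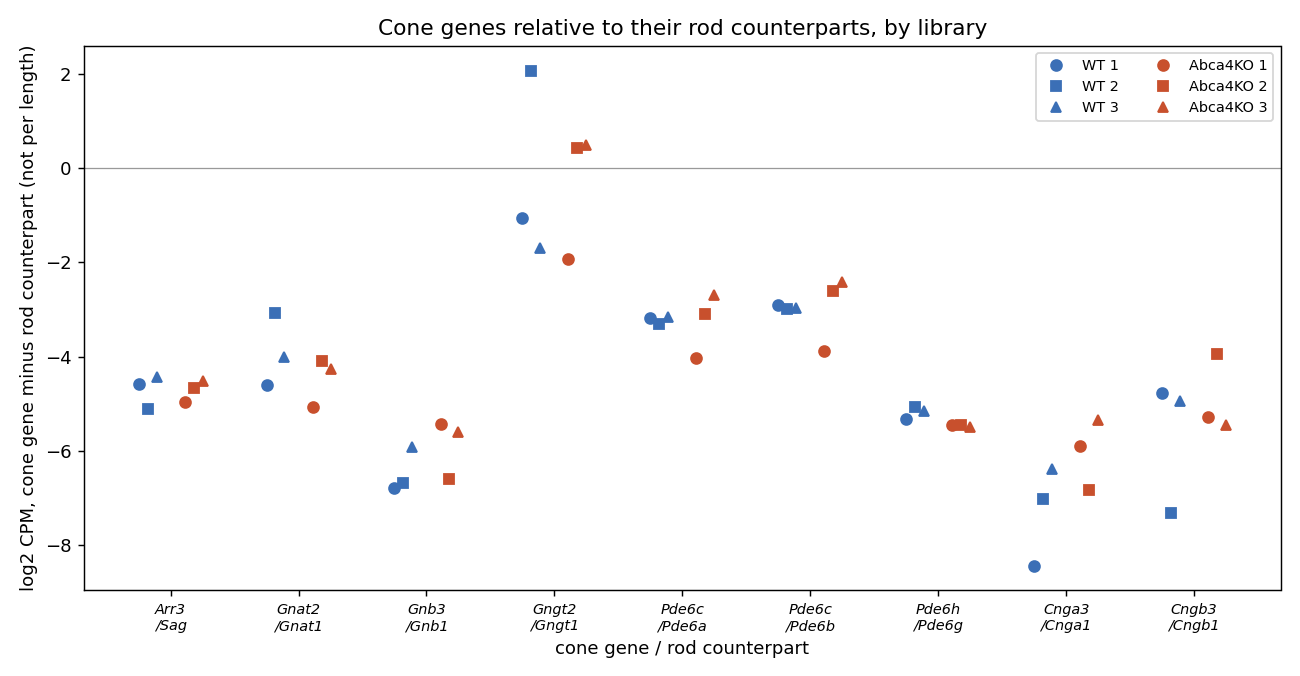
Log2 CPM of 8 cone genes minus that of their rod counterparts (vertical axis, not corrected for length) in each library for 9 pairs, WT in blue and Abca4KO in red. Arr3 against Sag and Pde6h against Pde6g lie in narrow bands, whereas Gngt2 against Gngt1 ranges from -1.92 in Abca4KO 1 to 2.07 in WT 2.

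The fit with the mean level of 9 rod counterparts as a covariate (Gnb1, which most cells express, left out) also called 0 of the 9 cone genes. In it the log2 fold change of Opn1sw was 0.35 (SE 0.22, adjusted p = 0.638), that of Arr3 0.06 (SE 0.26, adjusted p = 0.965) and that of Gnb3 0.49 (SE 0.32, adjusted p = 0.649). When the rod level entered the fit, the SE of Opn1sw fell from 0.67 to 0.22 and that of Arr3 from 0.64 to 0.26, the largest falls of the 9. That of Opn1mw stayed at 0.45, that of Cngb3 went from 1.00 to 0.85 and that of Pde6h from 0.58 to 0.45. The log2 fold change of Gngt2 went from 0.13 to 0.49 (SE 0.29, adjusted p = 0.608).

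Without both WT 2 and Abca4KO 1, the lowest and the highest library for rod genes, 5 cone genes changed sign. This pair was left out after the values were seen. WT 2 was the lowest and Abca4KO 1 the highest library for 6 of the 9 tested cone genes, so leaving both out lowers the difference for these 6 by construction, and all 5 that changed sign were among them. Arr3 then stood at -0.72 on the log2 scale (SE 0.31, adjusted p = 0.306), Pde6c at -0.61 (SE 0.27, adjusted p = 0.321) and Opn1sw at -0.49 (SE 0.25, adjusted p = 0.382). Pde6h (-0.69) and Cngb3 (-0.43) turned negative too, while Gngt2 was at 0.99 (SE 0.27, adjusted p = 0.1246). Again 0 of 9 passed the threshold, against 1.09% of the 17411 genes tested with these 4 libraries. The genotypes, now 2 libraries each, did not overlap in 6 of the 9, against 48.2% of all genes tested. Opn1sw, Arr3, Gnat2, Pde6c and Pde6h were the 5 lower and Gngt2 the 1 higher in Abca4KO among these 6.

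**Figure D4:**
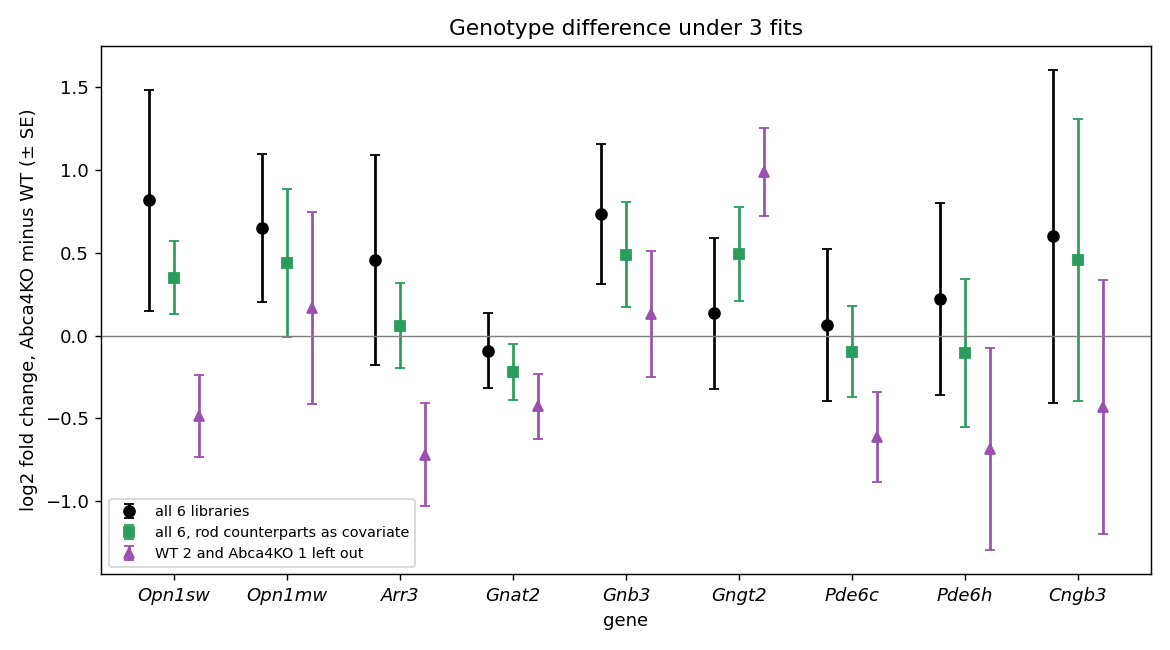
Log2 fold change, Abca4KO minus WT, with its SE for the 9 tested cone genes in the fit of all 6 libraries (black), in the fit with rod counterparts as covariate (green) and without WT 2 and Abca4KO 1 (purple). Opn1sw goes from 0.82 to -0.49 between the first and the last fit and Gngt2 from 0.13 to 0.99, and no value passed the threshold in any of the 3.

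Of 20 tested genes of phototransduction and its regulation in rods, cones or both, 0 passed the threshold, 15 were positive and the median log2 fold change was 0.33. Abca4KO 1 was the highest library in 15 of them and WT 2 the lowest in 13, against 13.9% and 19.9% of all genes tested. Rcvrn, the calcium sensor recoverin, measured 20.2, 10.2 and 18.6 CPM in WT and 45.97, 13.3 and 16.4 CPM in Abca4KO (log2 fold change 0.63, SE 0.49, adjusted p = 0.846). Rgs9, which speeds the shut-off of transducin, had the smallest p of the list. It measured 143, 138 and 167 CPM in WT and 132, 103 and 119 CPM in Abca4KO, with all Abca4KO libraries below all WT libraries (log2 fold change -0.34, SE 0.12, adjusted p = 0.669).

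A further list held 9 genes known from cones, 3 of which (Gucy2f, Slc24a2 and Slc24a4) also stand in the preceding list of phototransduction genes. Of the 7 tested, these 3 among them, 0 passed the threshold, 6 were negative and the median log2 fold change was -0.20, and in 0 of them was WT 2 lowest with Abca4KO 1 highest. Thrb, the thyroid hormone receptor needed for the middle-wavelength cone fate, measured 41.3, 41.9 and 37.6 CPM in WT and 37.1, 34.0 and 36.1 CPM in Abca4KO (log2 fold change -0.17, SE 0.09, adjusted p = 0.759). Rxrg, its partner that represses Opn1sw, measured 4.40, 7.68 and 6.15 CPM in WT and 4.67, 4.90 and 6.22 CPM in Abca4KO. Of 8 photoreceptor transcription factors 0 passed, with a median log2 fold change of 0.18. Crx, which activates both rod and cone genes, measured 22.9, 5.74 and 24.6 CPM in WT and 47.7, 11.6 and 16.4 CPM in Abca4KO, with the same lowest and highest libraries as Arr3.

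The genes whose centred profile lay nearest to the mean of the 7 cone genes with at least 1 CPM were Dnah11, Scd3, Egflam, Uchl3, Impdh1 and Rnpc3, at root mean square distances of 0.098 to 0.159 log2 units over the 6 libraries, among 13867 candidates. Dnah11, the nearest, measured 1.36, 0.805 and 1.47 CPM in WT and 2.13, 0.980 and 1.39 CPM in Abca4KO. Scd3, the next, measured 1.83, 1.23 and 2.40 CPM in WT and 3.75, 1.70 and 2.32 CPM in Abca4KO. Of the 6, only Egflam and Impdh1 are described further, picked for their known link with photoreceptors. Egflam encodes pikachurin, a matrix protein of the photoreceptor synapse, and measured 8.22, 4.29 and 9.42 CPM in WT and 14.4, 6.14 and 7.96 CPM in Abca4KO. Impdh1, an enzyme of guanine nucleotide synthesis that photoreceptors use strongly, measured 32.1, 18.5 and 25.7 CPM in WT and 43.4, 21.5 and 32.3 CPM in Abca4KO. The adjusted p-values of these 6 genes lay between 0.833 and 0.924.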

How the data were processed

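Bulk RNA-seq was made from the RPE of 3 WT and 3 Abca4KO mice. The authors deposited raw read counts per gene, whole numbers with no normalization, 1 column per library. STAR, HTSeq and mm10 are named in the submitters' processing notes, without versions; the annotation release and strand setting are not given in the sources used here. All 10 cone gene models had the coordinates of GENCODE M21.

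Genes were kept with filterByExpr (minimum count 10, 17340 genes), scaled by TMM and tested with edgeR 4.0.16 (R 4.3.3), 2-sided quasi-likelihood test, no covariate, Benjamini-Hochberg adjustment over all genes tested, threshold 0.05. SE is the log2 fold change over the square root of F. Profiles use log2 CPM with 1 count added. The procedure was tested on simulated data. Library pairs differed by more than counting noise (chi-square per degree of freedom at least 13.7). Alternatives used DESeq2 1.42.0, limma 3.58.1, other size factors and filters, a replicate block, a rod covariate and left-out libraries. BLAST 2.17.0 searched GENCODE M21 transcripts.

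The members and lists were chosen with earlier results of these data known. Named genes were the members, their rod counterparts, up to 4 genes per list by smallest p (given only where a result turns on them) and the 6 nearest profiles; Crx, Calu, Abi3, Arhgdib and Gm49651 were named after their values were seen. Results for 1 rod counterpart on its own are not reported here; it stays in the list counts and means.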

Additional observations from a re-analysis of the deposited data

How the results depend on the processing

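No cone gene that was tested passed the threshold under any of the 15 alternatives. Cnga3 was tested only without a filter on low counts, a minimum count of 30 left out Opn1mw, Pde6h and Cngb3 as well, and DESeq2 gave Cngb3 no adjusted p. Outside the fits that left out 1 library, 5 genes changed sign. With limma-voom and sample weights, the log2 fold change was -0.093 for Arr3, -0.27 for Pde6c, -0.32 for Pde6h and -0.22 for Cngb3. With the rod covariate it was -0.10 for both Pde6c and Pde6h. Without both WT 2 and Abca4KO 1 it was -0.49 for Opn1sw, -0.72 for Arr3, -0.61 for Pde6c, -0.69 for Pde6h and -0.43 for Cngb3, and the genotypes did not overlap in 6 cone genes. Leaving out single libraries gave -0.054 to 1.29 for Opn1sw, -0.29 to 0.79 for Arr3, -0.34 to 0.069 for Gnat2, -0.19 to 0.81 for Gngt2, -0.31 to 0.34 for Pde6c and -0.35 to 0.47 for Pde6h, and 0 to 1 cone genes without overlap of the genotypes (20.1% to 28% of all genes tested). The cause of these changes was not tested.

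Over all genes, 8 passed; 19 did without a filter, 114 with DESeq2, 31 with limma-voom, 22 with the rod covariate, 190 without WT 2 and Abca4KO 1, and 3 to 11 when 1 library was left out. Whether replicate numbers pair the mice could not be settled, because the 3 deviations of each genotype sum to 0 and are not independent. Correlations of deviations were 0.169, 0.344 and -0.0747 for numbers 1, 2 and 3. WT 3 correlated best with Abca4KO 1, at 0.307, and the other WT libraries with their own number. The fit with a replicate block called 9 genes and 0 cone genes. Depth limits Cnga3, Cngb3 and Pde6h most, at 0 to 33 counts per library.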
